A study of Homo sapiens with 6 samples.

Results

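The solute carriers (SLC genes) were described in DLD-1 cells, a line from a human colorectal cancer with epithelial growth, kept with and without DOX. DOX is the usual short form of doxycycline, the drug that switches on inducible gene constructs. Members were the protein-coding genes whose symbol begins with SLC and a family number, without the SLCO genes, selected on their raw reads: 60 or more summed over the 6 libraries. This rule kept 189 of the 317 SLC genes in the count table, out of 27264 gene rows in all. The members belong to 44 families. The other 128 SLC genes fell under the limit, and 26 of them had 0 reads. Of the members, 187 entered the statistical tests, which covered 11732 genes.

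Solute carriers are membrane proteins that move small molecules and ions down their own gradient, together with an ion whose gradient drives them, or in exchange for another solute. The families sort mainly by substrate: amino acids, sugars, carboxylates, nucleotide sugars, metals, vitamins and inorganic ions. Most sit in the plasma membrane, while the SLC25 family lies in the inner mitochondrial membrane and the SLC35 family in the Golgi and endoplasmic reticulum. In the colon they carry out nutrient and salt exchange across the epithelium, and in tumour cells they bring in glucose and amino acids and let out lactate.

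The 6 libraries came from 3 clones labelled DLD-1 ZEB2 WT2, WT5 and WT37, each sequenced once without DOX, which the labels call epithelial, and once with DOX, which they call mesenchymal. The 3 libraries of a group are thus 3 clones. ZEB2 is a transcriptional repressor of epithelial genes, and the series asks how it acts in the epithelial to mesenchymal transition. Every group carries the ZEB2 WT genotype, and the labels give no cells treated with DOX without it, so a direct action of DOX on the cells and an action through ZEB2 cannot be told apart. Dose, length of treatment and construct are not stated in the labels. The descriptions of all 6 libraries also carry the tag TR21 after the name of the line, which the labels do not explain. Each clone is a single line, and differences among clones are differences among these 3 lines.

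ZEB2 itself, the targeted gene, had few reads. Without DOX it had 9, 5 and 3 reads in WT2, WT5 and WT37, and with DOX 20, 9 and 22. It was higher with DOX in each clone, but the difference did not pass the test (log2 fold change 1.38 ± 0.48 (SE) with the clone as a block, edgeR's quasi-likelihood adjusted p = 0.225). The library kit reads transcript 3' ends and the construct is not described, so how far these reads count a ZEB2 copy of the construct was not tested. The 7 epithelial markers of the cell line summed to 5617 to 7053 CPM (counts scaled to a library total of 1000000 reads) without DOX and 3671 to 4768 CPM with DOX, and KRT18 held the largest part. KRT18 and EPCAM fell with DOX (blocked log2 fold change -0.69 and -0.73, edgeR adjusted p = 0.0135 and 0.0230), CDX2, an intestinal transcription factor, rose (0.42, adjusted p = 0.0464), and CDH1, KRT8, KRT20 and VIL1 did not pass, with values from -1.97 to -0.54. The 6 mesenchymal markers summed to 11.2 to 15.9 CPM without DOX and 9.46 to 19.4 CPM with DOX, and members of this list went opposite ways. FN1, most of the sum without DOX, was lower with DOX in each clone (-0.56, adjusted p = 0.287). VIM had 1, 3 and 5 reads in WT2, WT5 and WT37 without DOX and 5, 8 and 15 with DOX, and ZEB1 went from 1 read per library to 4, 9 and 11. Of 9 markers of immune, endothelial and stromal cells, 7 were in the table, and they summed to 4.23 to 9.49 CPM without DOX and 4.65 to 10.5 CPM with DOX. PECAM1 and COL1A2 were at 0 in every library. The part of these markers in the results on the carriers was not tested. In cultures measured in bulk, fewer cells of a state and less RNA per cell cannot be told apart.

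Each library held 5440093 to 7164426 reads in genes, of which the members took 1.21% to 1.34%. Every member had at least 1 read in every library, and 137 to 150 members stood above 10 CPM in a library. At this depth 3 reads correspond to 0.419 to 0.551 CPM. The members just inside the limit were SLC30A4 with 60 reads in all and SLC25A18 with 61. Just outside it were SLC9A5 with 59 reads and SLC45A2 with 51. A gene can pass the limit through 1 clone: 14 members held under 60 reads without the clone in which they had most, among them SLC2A3, SLC47A1 and SLC29A4, for each of which that clone was WT37. A gene can also pass it through the libraries with DOX. SLC29A4, SLC16A4 and SLC19A2 held under 60 reads in the libraries without DOX together, and such members were not counted.

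The most abundant members were carriers of ions, amino acids and mitochondrial substrates. Because the kit gives 1 fragment per transcript end, gene length does not enter, and levels in CPM were compared between genes. SLC12A2, the sodium-potassium-chloride cotransporter of secretory epithelia, was the highest at a mean of 969 CPM over the 6 libraries. The mitochondrial ADP/ATP carrier SLC25A5 followed at 803 CPM, and the mitochondrial phosphate carrier SLC25A3 stood at 635 CPM. SLC7A5, the light chain that imports leucine and other large neutral amino acids, had 641 CPM, and its heavy chain partner SLC3A2 had 473 CPM. SLC7A8, another light chain of SLC3A2, had 474 CPM, and the glutamine transporter SLC1A5 had 405 CPM. The lactate and proton cotransporter SLC16A1 reached 343 CPM and the phosphate importer SLC20A1 277 CPM. SLC2A4RG, which ranked among these at 302 CPM, encodes a DNA-binding protein named for the SLC2A4 promoter and is a member by symbol only. SLC4A1AP and SLC22A18AS are likewise no carriers. The 10 most abundant members took 40.9% to 42.95% of the members' reads in a library.

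By substrate, the 30 amino acid carriers held 24.5% of all member reads, at a median of 30.6 CPM, and the 34 mitochondrial carriers held 23.7%, at a median of 34.1 CPM. The 22 metal carriers had a median of 39.95 CPM, led by the zinc importer SLC39A1 at 211 CPM. The 22 carriers of nucleotide sugars and related donors had a median of 35.6 CPM, led by SLC35B1 at 144 CPM. The 9 mono- and dicarboxylate carriers had a median of 11.1 CPM although SLC16A1 stood at 343 CPM, and the 14 cation exchangers and chloride cotransporters had a median of 20.04 CPM although SLC12A2 stood at 969 CPM. Groups follow the family number, so a few members carry something else, such as SLC5A6, a vitamin transporter among the sugar carriers. Some well-known intestinal carriers fell under the limit: SLC5A1, the glucose and sodium cotransporter, had 26 reads in all, the iron exporter SLC40A1 29, and the amino acid importer SLC6A14 was at 0. SLC9A3 and SLC26A3, the sodium and chloride exchangers of the brush border, were not analysed here.

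**Figure D1:**
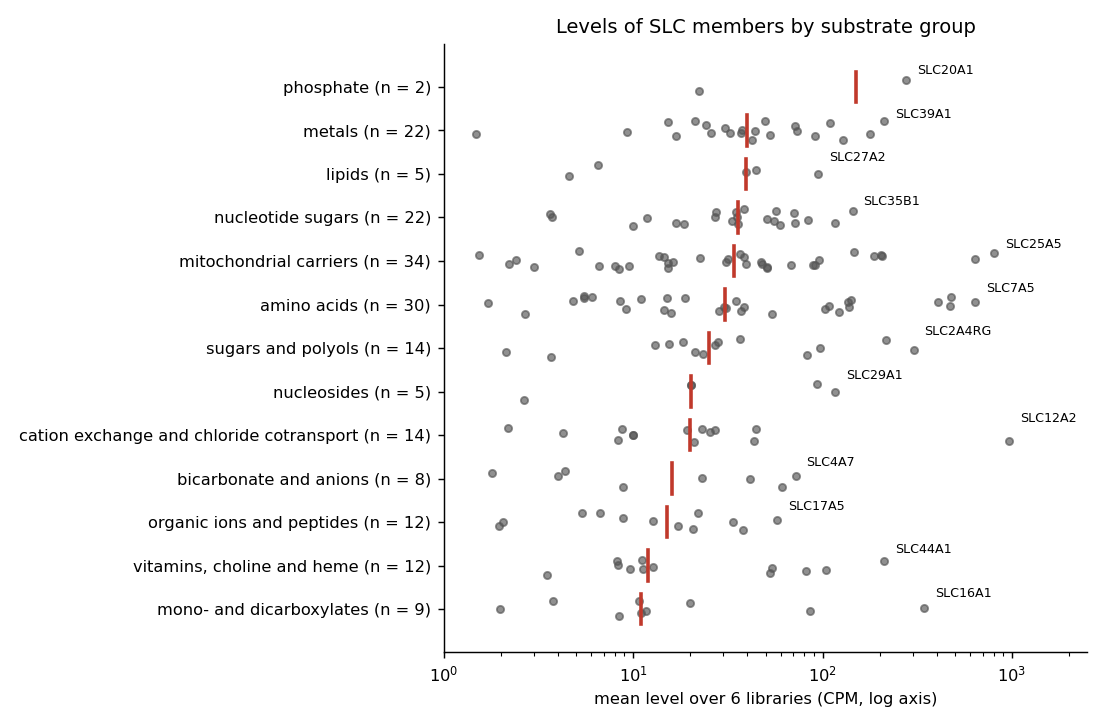
Mean level of each of the 189 members over the 6 libraries, in CPM on a log axis, with members arranged by substrate group; each point is a gene and the bar marks the group median. Medians lie between 11.1 CPM for carboxylates and 39.95 CPM for metals, apart from the phosphate group of 2 genes, and SLC12A2 is the highest point at 969 CPM.

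Across the 3 clones, DOX moved few carriers in a way that exceeded the spread between libraries. Only 3 members passed the test that takes out the level of each clone: SLC6A20 was lower with DOX, and SLC7A8 and SLC5A3 were higher. Without the clone as a block, 0 members and 0 of the 11732 genes passed (0% called, quasi-likelihood test of edgeR, p adjusted by Benjamini-Hochberg, threshold 0.05). At an unadjusted p under 0.05 that test gave 16 of 187 members, beside 6.04% of all genes. DESeq2 called 1 member without the block, SLC6A20, and limma-voom 0. With the block, the share called was 1.3% over all genes and 1.6% of the members. In the higher direction it was 2 of 187 members beside 0.656% of all genes, and in the lower direction 1 of 187 beside 0.639%, which is near the background in both directions. The median blocked log2 fold change of the members was -0.00, with 93 above 0 and 94 below, and that of all genes tested was 0.01.

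SLC6A20 (ENSG00000163817, chr3:45755450-45796535, minus strand, GRCh38) is a sodium and chloride dependent transporter of proline and related imino acids in the apical membrane of intestine and kidney. Without DOX it stood at 40.6, 42.0 and 63.4 CPM in WT2, WT5 and WT37, and with DOX at 10.1, 19.5 and 10.95 CPM. Every library with DOX was lower than every library without it. The group means were 48.7 ± 12.8 CPM (SD, n = 3) and 13.5 ± 5.20 CPM (SD, n = 3). The blocked log2 fold change was -1.89 ± 0.27 (SE), with an edgeR adjusted p = 0.0305, and without the block it was -1.87 with an adjusted p = 0.165. The ratio with over without DOX within a clone was 0.173 for WT37, 0.249 for WT2 and 0.465 for WT5. The 95% counting intervals (exact binomial, counting error only) reached from 0.134 to 0.574. The blocked call was lost without WT2 (log2 fold change -1.83, edgeR adjusted p = 0.327) and was made without WT5 (-2.36, adjusted p = 3.29e-05) and without WT37 (-1.53, adjusted p = 0.0293).

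SLC7A8 (ENSG00000092068, chr14:23125295-23183674, minus strand) exchanges small and large neutral amino acids and in epithelia sits on the basolateral side. It had 271, 308 and 463 CPM without DOX and 449, 372 and 981 CPM with DOX, in WT2, WT5 and WT37. The groups overlapped, because WT37 without DOX lay above WT2 and WT5 with DOX, yet each clone was higher with DOX than without. The blocked log2 fold change was 0.66 ± 0.12 (SE, edgeR adjusted p = 0.0360), and without the block it was 0.74 (adjusted p = 0.849). Within clones the log2 ratio was largest for WT37 (1.08), then WT2 (0.73) and WT5 (0.27). The blocked call was lost without WT2 (0.65, adjusted p = 0.259) and without WT37 (0.48, adjusted p = 0.371). Leaving out the WT37 library with DOX alone took the value without the block from 0.74 to 0.26.

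SLC5A3 (ENSG00000198743, chr21:34073570-34106262, plus strand) imports myo-inositol, an osmolyte and a precursor of phosphoinositides. It had 12.5, 14.7 and 12.3 CPM without DOX and 22.6, 19.7 and 27.8 CPM with DOX, in WT2, WT5 and WT37. Every library with DOX lay above every library without it. The blocked log2 fold change was 0.78 ± 0.17 (SE, edgeR adjusted p = 0.0469), and 0.79 without the block (adjusted p = 0.358). That call was lost without WT2 (0.77, adjusted p = 0.302) and without WT37 (0.61, adjusted p = 0.547), and DESeq2 with the block did not make it (adjusted p = 0.147). SLC5A3 shares exon sequence on the same strand with MRPS6, a mitochondrial ribosomal protein gene, so its count is uncertain to that extent. MRPS6 had 143, 127 and 132 CPM without DOX and 158, 136 and 158 CPM with DOX, a blocked log2 difference of 0.13 ± 0.09 (SE, edgeR adjusted p = 0.578).

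**Figure D2:**
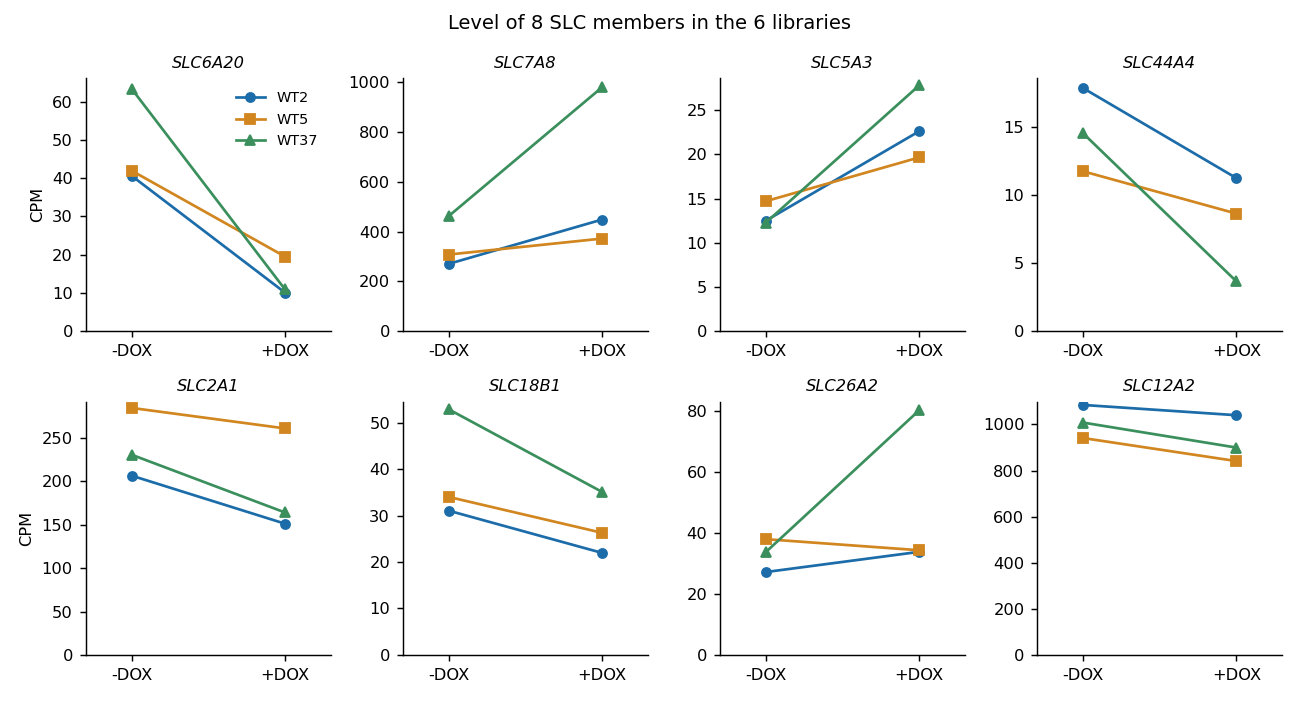
Level of 8 members in the 6 libraries, in CPM on axes that start at 0, without DOX on the left and with DOX on the right of each panel; lines join the 2 libraries of a clone. The SLC6A20 lines all fall, from 40.6 to 63.4 CPM down to 10.1 to 19.5 CPM, while SLC26A2 is steepest in WT37, from 33.8 to 80.3 CPM.

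Other members nearest to the threshold, given as values, were counted by role. Among glucose and lactate carriers, SLC2A1, the basal glucose transporter GLUT1, had 207, 285 and 231 CPM without DOX and 151, 261 and 164 CPM with DOX (blocked log2 difference -0.39 ± 0.10 (SE), edgeR adjusted p = 0.108). SLC16A1 had 368, 352 and 401 CPM without DOX and 320, 311 and 306 CPM with DOX, and its groups did not overlap (-0.29 ± 0.09, adjusted p = 0.171). SLC2A1 was lower with DOX in each clone while its groups overlapped through the higher level in WT5. The blocked calls of SLC2A1 and SLC16A1 were made when WT5 was left out (adjusted p = 0.00568 and 0.0404).

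SLC44A4, which carries choline and thiamine pyrophosphate in the apical membrane of colon cells, had 17.8, 11.7 and 14.5 CPM without DOX and 11.2, 8.63 and 3.65 CPM with DOX. Its blocked log2 difference was -1.005 ± 0.28 (SE, edgeR adjusted p = 0.137), and every library with DOX lay below every library without it. SLC18B1, a vesicular polyamine transporter, had 31.1, 34.03 and 52.9 CPM without DOX and 21.97, 26.3 and 35.1 CPM with DOX (-0.53 ± 0.13, adjusted p = 0.0719). Its groups overlapped through WT37. SLC30A6, a zinc carrier of the Golgi, stood at 41.04 to 42.5 CPM without DOX and 32.4 to 33.2 CPM with DOX. Its groups did not overlap, and the blocked log2 difference of -0.39 ± 0.12 had an adjusted p = 0.160. SLC12A7, a potassium and chloride cotransporter, had 23.8 to 28.6 CPM without DOX and 17.8 to 20.6 CPM with DOX (-0.45 ± 0.15, adjusted p = 0.184). The nucleoside transporter SLC29A2 had a difference of -0.35 with an adjusted p = 0.174.

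In the higher direction, the heme transporter SLC48A1 had 64.3 to 73.0 CPM without DOX and 87.4 to 107 CPM with DOX, so its groups did not overlap. Its blocked log2 difference was 0.43 ± 0.11 (SE, edgeR adjusted p = 0.0905). It lies opposite HDAC7 and RAPGEF3, so its count is uncertain on shared bases without knowledge of strand. SLC49A4 differed by 0.63 (adjusted p = 0.141), SLC2A4RG by 0.31 (adjusted p = 0.147), SLC66A3 by 0.67 (adjusted p = 0.166) and the mitochondrial coenzyme A carrier SLC25A42 by 0.70 (adjusted p = 0.186). SLC29A4, a monoamine and adenosine transporter with 8 to 10 reads per library without DOX and 17 to 40 with DOX, differed by 1.25 ± 0.40 (adjusted p = 0.183). None of these passed.

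By this count of libraries, 12 of 187 members had all libraries with DOX above all without, beside 6.55% of all genes, and 14 had all below, beside 4.56% of all genes. At an unadjusted blocked p under 0.05, 13 members were higher, beside 6.71% of genes, and 18 were lower, beside 6.16%. Group medians of the blocked log2 difference lay from -0.23 for the 5 lipid carriers of family 27 to 0.18 for the 8 bicarbonate and anion carriers. Of the 30 amino acid carriers, 1 passed in each direction, with a median of 0.05. Of the 14 sugar and polyol carriers 1 passed. In the other 11 substrate groups, 0 of the 143 members tested passed edgeR's test with the block, DESeq2 or limma-voom with the block, and 20 had an unadjusted p under 0.05, beside 12.9% of all genes. In the mitochondrial family the median was -0.01, with SLC25A5 at -0.01 ± 0.09 and SLC25A3 at -0.03 ± 0.09, and among the cation and chloride carriers SLC12A2 stood at -0.17 ± 0.08 (adjusted p = 0.429).

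Genes outside the SLC symbols whose products assemble with, energise or regulate carriers were counted as a list of 31, of which 25 were tested. The list holds, for example, the SLC16 chaperone BSG, sodium pump subunits and kinases of the WNK pathway. With the block 1 of the 25 passed for DOX, beside 1.3% of all genes. It was TTYH3, a chloride channel related gene, higher with DOX (0.89 ± 0.16 (SE), edgeR adjusted p = 0.0469). Called lower were 0, and the median was 0.02. FXYD3 had the largest blocked log2 difference, -2.00 ± 0.54 (SE), and did not pass (edgeR adjusted p = 0.220). Differences among clones passed for 2 of the 25, beside 6.84% of all genes. These were UCP2, a mitochondrial carrier by structure (edgeR adjusted p = 0.0135), and the metal-binding MT2A (adjusted p = 0.00246). UCP2 was of low level, with 2 and 11 reads in WT37, 14 and 28 in WT2 and 17 and 54 in WT5, without and with DOX.

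ZEB proteins bind the E-box letters CACCTG, which read CAGGTG on the other strand, so the promoters were searched for both forms in the 250 bases before the start given by RefSeq on GRCh38.p14. Of the members, 155 matched a promoter entry, and 37 of them (23.9%) held the letters, beside 4781 of 27305 promoters in all (17.5%). The median blocked log2 difference was -0.04 for the 36 tested members with the letters and 0.01 for the 117 without. Of members with an unadjusted blocked p under 0.05, 6 of 15 in the lower direction and 0 of 10 in the higher direction held a match, a division made after the values were seen. Those 6 were SLC6A20, SLC44A4, SLC16A10, SLC9A8, SLC12A7 and SLC25A13. SLC18B1, SLC2A1 and SLC30A6 were also lower with DOX, with a smaller unadjusted blocked p than SLC12A7, and held no match. The windows printed below were picked as examples and do not stand for the list. A match of letters is a description of these windows and no evidence of binding. The windows of SLC6A20 (chr3:45796537-45796786, minus strand, match 240 bases before the start), SLC12A7 (chr5:1112064-1112313, minus strand, match 63 bases before the start) and SLC5A3 (chr21:34073328-34073577, plus strand, no match) are shown 5′ to 3′ on the strand of the gene, because SLC6A20, which fell, and SLC12A7, whose difference did not pass, hold the letters far from and near to the start, and SLC5A3, which rose, holds none; capitals mark the E-box.
SLC6A20: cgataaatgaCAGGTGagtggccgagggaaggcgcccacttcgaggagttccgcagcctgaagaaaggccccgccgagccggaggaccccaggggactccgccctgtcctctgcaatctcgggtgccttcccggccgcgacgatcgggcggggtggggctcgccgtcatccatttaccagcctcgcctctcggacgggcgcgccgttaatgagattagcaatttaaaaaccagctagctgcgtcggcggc
SLC12A7: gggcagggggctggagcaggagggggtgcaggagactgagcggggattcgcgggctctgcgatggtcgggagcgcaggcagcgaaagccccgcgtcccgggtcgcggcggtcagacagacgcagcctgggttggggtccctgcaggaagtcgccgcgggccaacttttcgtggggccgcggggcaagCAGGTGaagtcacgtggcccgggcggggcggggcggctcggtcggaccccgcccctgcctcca
SLC5A3: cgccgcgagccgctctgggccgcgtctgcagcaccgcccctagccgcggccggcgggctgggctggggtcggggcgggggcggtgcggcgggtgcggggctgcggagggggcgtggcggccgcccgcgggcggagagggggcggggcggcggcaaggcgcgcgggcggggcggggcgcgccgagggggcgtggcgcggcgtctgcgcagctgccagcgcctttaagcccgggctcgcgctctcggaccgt

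In the SLC6A20 window the letters lie near the far end, in the form CAGGTG. In the SLC12A7 window the same form lies in a stretch rich in G and C close to the start.

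Within single clones the DOX differences were larger in WT37 than in the other 2 for several carriers, but each clone had 1 library per condition, so these values carry no test, and the difference between clones was not tested. A change of 2-fold or more in CPM + 0.5 was met in WT2 by 0 members upward and 4 downward, beside 1.78% and 1.37% of the genes with 60 or more reads. In WT5 it was met by 2 upward and 2 downward, beside 1.53% and 0.89%. In WT37 it was met by 9 upward and 2 downward, beside 3.17% and 1.54%. SLC29A4, SLC16A4 and SLC19A2 reached the limit of 60 reads through the libraries with DOX, which can raise the upward counts. SLC6A20 was the member named by this fold in all 3 clones.

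In WT37, SLC26A2, the sulfate transporter, went from 33.8 to 80.3 CPM, a ratio of 2.38 with a 95% counting interval of 2.04 to 2.78. It stood at 27.2 and 33.8 CPM in WT2 and at 37.99 and 34.4 CPM in WT5. SLC19A2, a thiamine transporter, had 15 reads without and 56 with DOX in WT37, a log2 ratio of 1.69, and 22 and 14 reads in WT5, a log2 ratio of -0.74. Over the 3 clones its log2 difference without the block was 0.56, and it turned to -0.37 when WT37 was left out. SLC16A4, an orphan of the monocarboxylate family, had 22 and 60 reads in WT37 (log2 ratio 1.32). SLC5A3 also passed 2-fold in WT37, with 1.15. SLC44A4 had 104 reads without and 26 with DOX there, a log2 ratio of -1.85 in that pair of libraries.

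In WT2, SLC37A1, a glucose 6-phosphate and phosphate exchanger of the endoplasmic reticulum, went from 23.9 to 9.78 CPM (log2 ratio -1.25), with -0.54 in WT37 and 0.12 in WT5. SLC7A6, a basic and neutral amino acid exchanger that lies opposite SLC7A6OS, had 64 reads without and 35 with DOX in WT2 (log2 ratio -1.004), with -0.37 and -0.20 in WT5 and WT37. In WT5, SLC25A42 had 21 and 58 reads (log2 ratio 1.13), beside 0.46 in WT2 and 0.59 in WT37. The members named for a fold of 2 within a clone, SLC6A20 apart, thus reached that fold in CPM + 0.5 in 1 clone each. The other clones held smaller values or values of the other sign. In plain CPM, SLC16A4 also had a ratio of 2.18 in WT2, from 28 reads.

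**Figure D3:**
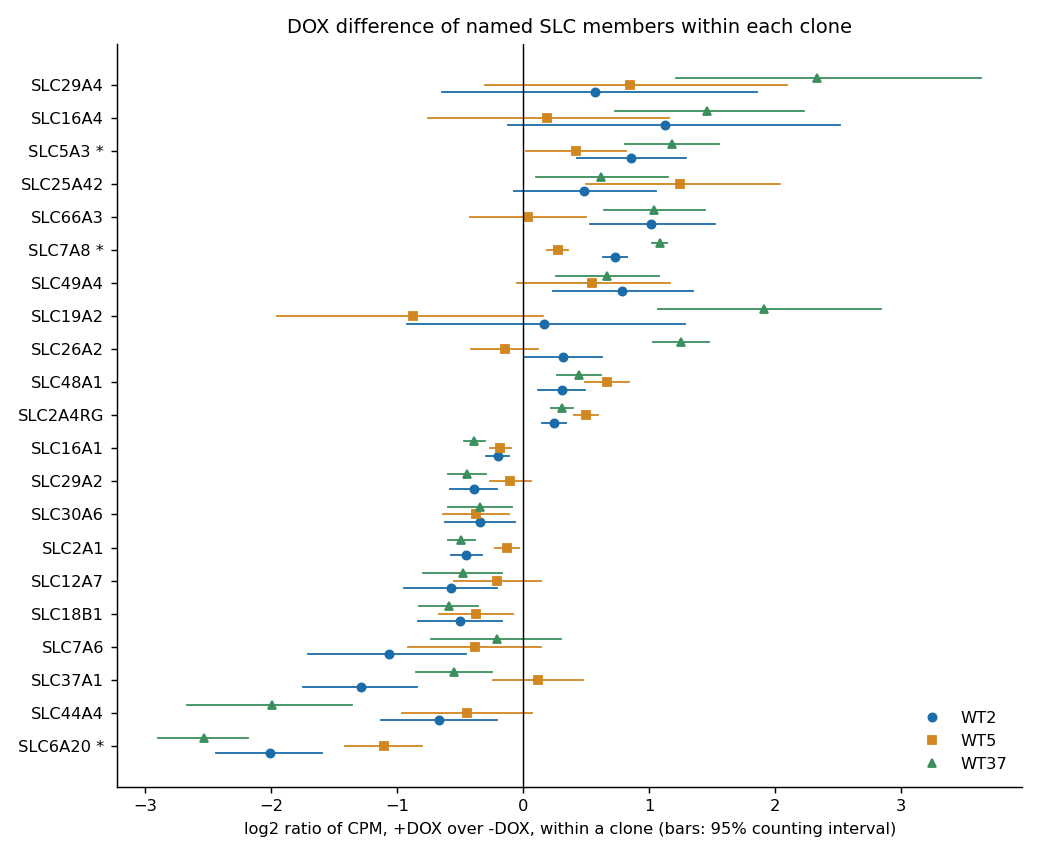
The log2 ratio of CPM with DOX over CPM without DOX within each clone for 21 named members, sorted by size; symbols are clones, bars are 95% counting intervals, and an asterisk marks members past the test with the clone as a block. SLC6A20 lies at the low end in each clone, and the WT37 symbol lies farthest from 0 for SLC29A4, SLC26A2 and SLC44A4.

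Across all 189 members the DOX difference in WT2 and WT37 ran in the same direction for 136 members, in WT2 and WT5 for 99, and in WT5 and WT37 for 106. The correlation across genes of the log2 ratios was 0.60 for WT2 and WT37, beside 0.49 over all genes with 60 or more reads, 0.22 for WT5 and WT37 (0.18 over all genes) and 0.10 for WT2 and WT5 (0.09 over all genes). Genes are not independent replicates, and the ratios within a clone share its 2 libraries and their depth. The member medians were 0.07 in WT37 and 0.01 in the others, and the SDs over members were 0.48 for WT37, 0.41 for WT2 and 0.37 for WT5. In the same direction in all 3 clones were 42 members upward, beside 21.5% of all genes, and 34 downward, beside 13.8%, which are 22.2% and 18% of the members.

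**Figure D4:**
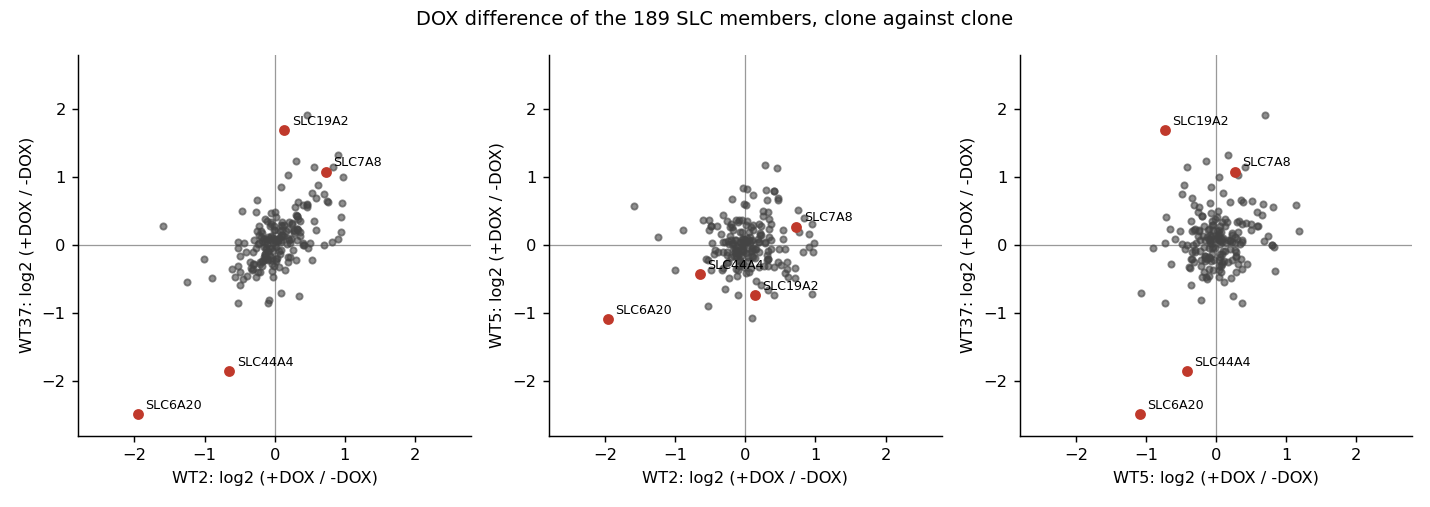
The DOX difference of the 189 members in a pair of clones per panel, as the log2 ratio of CPM + 0.5 with over without DOX; each point is a gene, and SLC6A20, SLC44A4, SLC19A2 and SLC7A8 are in red. The points spread along the diagonal for WT2 and WT37 and form a round cloud in the other panels, with SLC6A20 in the lower left of each.

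More carriers passed for differences among the clones than for DOX. The clone term passed for 19 of 187 members (10.2%), beside 6.84% of all genes, in edgeR's quasi-likelihood test with DOX in the model, and 26 members (13.9%) passed for the term or for a pair of clones, beside 9.43% of all genes. Between WT37 and WT2, 17 members passed, beside 5.83% of all genes: 13 members were higher in WT37, beside 3.15% of all genes, and 4 were lower, beside 2.68%. Between WT37 and WT5, 14 passed, beside 5.92%: 7 were higher, beside 3.17%, and 7 lower, beside 2.74%. Between WT5 and WT2, 5 passed, beside 1.02%: 4 were higher in WT5, beside 0.682%, and 1 was lower, beside 0.341%. The test takes the 2 libraries of a clone as its replicates and assumes that DOX acts alike in the 3 clones. The count moved to 32 without WT5, 10 without WT2 and 6 without WT37. The counts over all genes in these refits and the next are not given here, so the moves are no result about the carriers. Leaving out single libraries gave 7 without the WT37 library with DOX, 48 without the WT5 library without DOX and 40 without the WT5 library with DOX.

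Amino acid carriers held the largest number of members past the clone term, 6 of 30, beside 6.84% of all genes. Of the 7 members of family 7, 5 were among them. By share the amino acid carriers were not the highest group: lipid carriers (2 of 5) and mono- and dicarboxylate carriers (2 of 9) stood above them, in small groups. SLC7A5 (ENSG00000103257, chr16:87830023-87869488, minus strand) had 410 and 372 CPM in WT2, 755 and 973 CPM in WT5 and 657 and 681 CPM in WT37, each given without and then with DOX. Both WT2 libraries lay below all others. The log2 difference from WT2 was 1.10 ± 0.13 (SE) in WT5 and 0.65 ± 0.13 in WT37 (edgeR adjusted p = 0.00142 for the clone term). Its heavy chain SLC3A2 had 472 and 406 CPM in WT2, 512 and 618 CPM in WT5 and 410 and 420 CPM in WT37. SLC3A2 did not pass for the term (adjusted p = 0.0563) and was lower in WT37 than in WT5 by a log2 difference of -0.52 (adjusted p = 0.0346).

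SLC7A7 (ENSG00000155465, chr14:22773222-22829820, minus strand), the basolateral exporter of lysine and arginine, had 19.3 and 18.9 CPM in WT2, 74.0 and 76.1 CPM in WT5 and 78.4 and 56.3 CPM in WT37. The difference from WT2 was 1.93 ± 0.18 in WT5 and 1.69 ± 0.18 in WT37 on the log2 scale (edgeR adjusted p = 0.000202 for the clone term). SLC7A8 lies on the same chromosome and had another order: it was higher in WT37 than in WT2 by 0.84 ± 0.15 and than in WT5 by 0.92 ± 0.15 (adjusted p = 0.00736). Without the WT37 library with DOX, the difference of SLC7A8 from WT5 was 0.65 with an adjusted p = 0.111. SLC7A8 was the 1 member that passed both for DOX with the block and for the clone. SLC7A11, the cystine and glutamate exchanger, had a mean of 24.6 CPM in WT2 beside 40.3 CPM in WT5 and 39.9 CPM in WT37 (adjusted p = 0.0359), and the arginine importer SLC7A1 passed at 0.0485. SLC1A5, the glutamine transporter, was highest in WT5, with 517 and 543 CPM beside 346 and 343 CPM in WT2 and 376 and 305 CPM in WT37 (adjusted p = 0.00740).

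The amino acid carriers as a group were ordered by clone in a count without test. WT2 was the lowest clone both without and with DOX for 15 of the 30, beside 29.1% of all members and 21.1% of all genes with 60 or more reads. It was the highest in both conditions for 0 of the 30, beside 8.23% of all genes. WT5 was the highest in both for 10 (33.3%, beside 12.9% of all genes) and WT37 for 8 (26.7%, beside 30.9%). In family 6, WT2 was lowest in both conditions for 4 of 4 members, SLC6A20 among them. Of these, 0 passed for the clone term (edgeR adjusted p from 0.0896 to 0.874). SLC6A9, also of family 6, had 59 reads in WT5 and 50 in the other clones together. SLC38A8, another amino acid carrier, had 40 reads in WT37 and 28 in the other clones. Both met the limit through their highest clone, so the limit itself can raise the counts for family 6 and for the 30. The SLC6A20 level in WT2 lay close to that in WT5 without DOX and to that in WT37 with DOX. Over all members WT37 was highest in both conditions for 58 (30.7%), which is near the share over all genes. It was so for 7 of the 12 carriers of organic ions and peptides (58.3%). In that group SLC47A1 and SLC15A2 held under 60 reads without WT37, so the limit itself can raise this count.

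Among sugar and lactate carriers, SLC16A3, the lactate exporter MCT4 (ENSG00000141526, chr17:82228397-82261129, plus strand), had 19.9 and 13.6 CPM in WT2, 196 and 229 CPM in WT5 and 29.2 and 30.1 CPM in WT37. Both WT5 libraries stood far above the other 4, with a log2 difference of 3.63 ± 0.18 from WT2 (edgeR adjusted p = 2.26e-07 for the clone term), and SLC16A3 lies opposite CSNK1D. SLC2A3, the high-affinity glucose transporter GLUT3 (ENSG00000059804, chr12:7919230-7936275, minus strand), had 3 and 3 reads in WT2, 22 and 14 in WT5 and 72 and 38 in WT37. Summed over both libraries of a clone, the rate in WT37 was 14.98 times that in WT2, with a 95% counting interval of 6.67 to 41.7, and the clone term had an adjusted p = 0.00170. SLC2A3 had 42 reads in WT2 and WT5 together and is a member only through WT37, so its values are a description of the clone that put it past the limit. SLC2A1, which shares the substrate of SLC2A3, passed with another order and stood highest in WT5 (adjusted p = 0.0192). SLC16A14, an orphan of the carboxylate family, had a mean of 5.35 CPM in WT2 beside 13.1 CPM in WT5 and 14.7 CPM in WT37 (adjusted p = 0.0204).

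The carriers of organic ions, anions and other solutes that passed were mostly of low level. SLC22A15, an organic ion transporter, had 33 and 47 reads in WT2, 7 and 17 in WT5 and 43 and 65 in WT37 (edgeR adjusted p = 0.00899 for the clone term). SLC47A1, a proton and organic cation exchanger, had 6 and 12 reads in WT2, 3 and 2 in WT5 and 21 and 36 in WT37 (adjusted p = 0.0136). The rate in WT37 was 10.5 times that in WT5, with a counting interval of 4.24 to 33.5, again as a description, since SLC47A1 had 23 reads outside WT37 and is a member only through that clone. Both were lowest in WT5. SLC4A11, a borate family transporter of the bicarbonate group, had means of 7.75, 5.08 and 13.7 CPM (adjusted p = 0.0157), and SLC23A2, which imports ascorbate, had 13.7, 16.3 and 30.5 CPM (adjusted p = 0.0251). The fatty acid carrier SLC27A1 was highest in WT37, at 10.5 CPM beside 4.01 and 5.06 CPM (adjusted p = 0.0384), whereas SLC27A2 was lowest there, at 73.8 CPM beside 99.5 and 110 CPM (adjusted p = 0.0233).

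In the secretory and mitochondrial compartments, SLC35E1 had means of 69.5, 88.6 and 54.6 CPM (edgeR adjusted p = 0.0132), and SLC35B1 (adjusted p = 0.0327) and the pyrimidine nucleotide carrier SLC25A36 (adjusted p = 0.0309) also passed. SLC25A36 was the 1 mitochondrial carrier of 33 tested. Of the 49 metal, cation and chloride, vitamin and phosphate carriers tested, 0 passed for the clone term in edgeR, DESeq2 or limma-voom, and 10 had an unadjusted p under 0.05 in edgeR, beside 24.8% of all genes. By pair, the zinc carriers SLC30A9 and SLC39A9 passed between WT37 and WT2 (adjusted p = 0.0322 and 0.0336), and SLC49A4 of the vitamin and heme group between WT37 and WT5 (adjusted p = 0.0403).

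**Figure D5:**
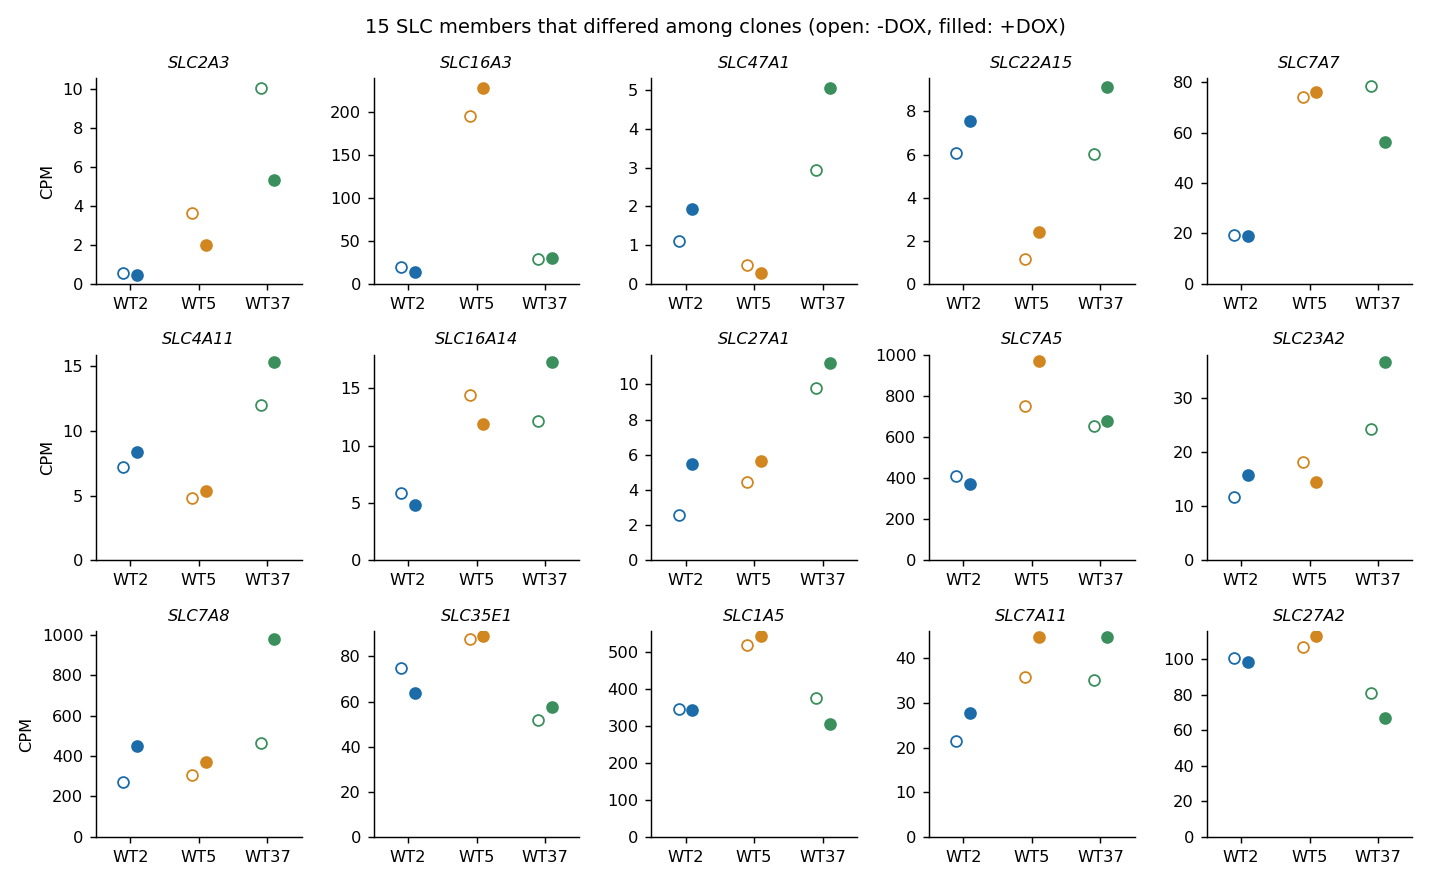
Level in CPM of 15 members that differed among the clones, open symbols without DOX and filled symbols with DOX, axes starting at 0. WT2 is lowest for SLC7A7 (18.9 and 19.3 CPM) and SLC7A5 (372 and 410 CPM), and WT5 stands apart for SLC16A3 (196 and 229 CPM).

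Leaving out the WT37 library with DOX ended the call of the named pair of clones for SLC47A1 (edgeR adjusted p = 0.139), SLC22A15 (0.0946), SLC4A11 (0.132), SLC16A14 (0.238), SLC27A1 (0.101), SLC23A2 (0.302), SLC35E1 (0.0584), SLC1A5 (0.212) and SLC27A2 (0.345). Here the pair is the one with the largest difference. Without the WT5 library with DOX the call of SLC47A1 was also lost (0.0710), its log2 difference moving from 3.24 to 2.47, and it was 3.96 without the WT5 library without DOX. Without the WT37 library without DOX the call of SLC35E1 was lost (0.0709). The call of SLC23A2 was lost without either WT2 library (0.157 and 0.0786), that of SLC16A14 without the WT2 library with DOX (0.164), and that of SLC27A1 without any 1 library of WT2 or WT37 (0.0617 to 0.341). The log2 differences of these members kept their sign. SLC16A3, SLC7A7 and SLC7A5 passed for that pair with each single library left out in turn. SLC2A3 did so too, but it is a member only through WT37, so its calls are a description. SLC7A11 passed between WT37 and WT2 (adjusted p = 0.0437), while its larger difference between WT5 and WT2 of 0.67 had an adjusted p = 0.0642. The clone differences read in the 3 libraries without DOX and, separately, in the 3 with DOX correlated across members at 0.55 for WT5 and WT2, 0.66 for WT37 and WT2 and 0.55 for WT37 and WT5, beside 0.34, 0.60 and 0.41 over all genes. Past 2-fold in both conditions were 6, 4 and 6 members (3.17%, 2.12% and 3.17%), beside 1.09%, 2.1% and 1.55% of all genes. These are descriptions across genes, since a clone gave 1 library per condition.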

How the data were processed

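Per the labels' protocols, the 6 DLD-1 libraries were prepared with the QuantSeq 3' FWD kit of Lexogen. The authors deposited raw read counts per Ensembl gene. The submitters' processing notes name GRCh38 and DESeq2. For the aligner, annotation, counting program and strand setting, nothing was given in the sources used here. The 4 rows that name no gene held 4.29% to 5.25% (unmapped), 11.8% to 16.0% (several places), 8.72% to 11.7% (no feature) and 6.85% to 7.40% (ambiguous) of the reads and were left out. Genes with near-identical copies are therefore undercounted, since their reads fall under several places.

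Symbols came from a gene table (22056 rows) and GENCODE 29 (4858 rows), and 350 rows stayed unnamed. Exons of 27 members overlap another gene on the same strand and of 72 on the other strand. Reads on the shared bases may be among the ambiguous ones that were left out. The strand setting is not known, so the counts of these members are uncertain to that extent. Counts were tested on the whole table in R 4.3.3 with edgeR 4.0.16 (filterByExpr, TMM with factors 0.951 to 1.075, robust quasi-likelihood test, Benjamini-Hochberg adjustment over 11732 genes, threshold 0.05), without and with the clone as a block. Robust moderation was adopted to match earlier processing of these counts, after the data were seen. The SE is the log2 fold change over the square root of the F statistic. Clones were compared by the clone term and by pair, with DOX in the model. Ratios within a clone used CPM + 0.5, and their intervals are exact binomial at 95% and cover counting error only. limma 3.58.1 (voom) and DESeq2 1.42.0 were alternatives. The tests were also run on simulated counts with the same dispersion for every gene and clone differences in a chosen part of the genes only. Such counts cannot show how the test without the block behaves on these libraries. The block took edgeR's biological coefficient of variation from 17.9% to 10.9%.

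Libraries with the same number come from the same clone, per the labels, so the numbers pair them. Deviations from the group means correlated within each clone (0.53 for WT37, 0.49 for WT2, 0.28 for WT5). Between different clones the correlations were below 0, which follows in part from taking out the group means and adds no separate evidence. Nothing in the labels gives separate cultures within a clone, so p-values measure the spread between these libraries.

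Members and lists were chosen with earlier results of these data known. Named members are those past the threshold for DOX, filled up to 8 per direction by the smallest p, the 15 called members with the largest clone difference, the 10 of highest mean CPM, up to 4 per direction and clone past 2-fold with 60 or more reads in that clone, the members next to the limit, and a fixed set of well-known carriers. Substrate groups follow family numbers. SLC16A10, SLC9A8 and SLC25A13 were named for their promoter after the values were seen. Promoters came from RefSeq (GRCh38.p14), where 34 members had no entry; windows with more than 30 exon bases are not printed.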

Additional observations from a re-analysis of the deposited data

How the results depend on the processing

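For DOX, the count of 0 members without the block rose to 3 with no filter on low counts and to 1 with DESeq2, and it was 0 with DESeq2's size factors in edgeR, a stricter filter, limma-voom or no robust moderation. With the replicate block it was 3, also with DESeq2's size factors, a stricter filter, limma-voom or no robust moderation (the last an alternative chosen after seeing the data), 2 with DESeq2 and 10 with no filter. Leaving out 1 clone or library gave 0 to 1 without the block, and leaving out 1 clone gave 0 to 18 with it. Over all genes, 0 without the block became 57 with DESeq2 and 206 with no filter. For the clone term, 19 became 35 with no filter and 10 with DESeq2, 16 to 20 under the other settings, and 6 to 48 without 1 clone or library. For the other settings the counts over all genes are not given here, so these moves are no result about the carriers. The causes were not tested.

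Within clones, a pseudocount of 2 CPM took the members past 2-fold from 4 to 2 in WT2, from 4 to 1 in WT5 and from 11 to 8 in WT37, and a limit of 1.5-fold gave 23, 24 and 28. SLC19A2 was 0.56, 1.14 without WT5, and reversed to -0.37 without WT37, to -0.38 with the block and without WT37, and to -0.18 without the WT37 library with DOX. Scored against the fit with the block, the 3 called members passed in 12 of 18 alternatives and lost the call in 6, and members not called passed in 10 of 105. Scored against the fit without the block, where 0 passed and no call could be lost, 369 values kept their direction and side of the threshold and 27 passed it. For the clones 144 kept both, 1 passed and 18 no longer passed. Depth limits members with few reads: SLC2A3, SLC19A2, SLC29A4 and SLC47A1 had under 25 reads in at least 3 libraries. With 1 library per clone and condition, a DOX effect that differs between clones could not be tested.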
